A study of Mus musculus with 6 samples.

Results

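Immediate early and activity-regulated genes were described in mouse hippocampus with and without a conditional knockout (cKO) of CTCF, a DNA-binding protein that helps to fold chromosomes into loops. The members are 39 genes picked by symbol from a list of genes whose transcription follows neuronal activity, of 24421 gene rows in the count table. All 39 passed the low-count filter that left 14916 genes for testing. They were grouped by role into 8 AP-1 and related leucine zipper factors, 4 EGR factors, 3 NR4A nuclear receptors, 9 other transcriptional regulators, 6 synaptic and neuronal effectors and 9 signalling feedback and stress effectors.

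The study sequenced RNA of hippocampus from 3 wild type mice and 3 CTCF cKO mice. All 6 libraries carry the strain label C57/Bl, and per the series' design text the 3 mice of a genotype are biological replicates. No treatment was given, per the labels. The Cre line that deletes Ctcf, the cells it acts in, and the animals' age and sex are not given in the sources used here. Nor is it stated what the mice did before the tissue was taken, and the members are genes that respond to it.

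When a neuron fires, calcium enters the cell and kinases activate transcription factors that already sit on DNA, above all CREB and SRF, without new protein being made. The first genes to be transcribed, the immediate early genes, encode transcription factors such as FOS, EGR1 and NPAS4, and proteins that act at synapses, such as ARC. In hippocampus these genes mark neurons that took part in a recent experience, and their mRNAs are short-lived, so a tissue level reflects the animal's last hour or so. This does not hold equally for all members. Jund is present in resting cells, and Homer1 was counted here with its long forms.

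CREB binds the cAMP response element, whose core is TGACG. In RefSeq promoter windows of build GRCm38.p6, reaching from 250 bases before to 50 after a gene's start, this core was searched on both strands. A window was at hand for 31 of the 39 members, and those without one were Egr1, Ier2, Nptx2, Klf10, Egr3, Trib1, Sik1 and Arc. The core lay in at least 1 window of 23 of the 31 members (74.2%), against 23.0% of all 27025 genes with a window and 34.1% of the tested genes. A gene could have more than 1 window: the 31 members had 43, and the 27025 genes had 32851. The shares were not adjusted for this. The full palindrome TGACGTCA, which contains the core on both strands, was found in Btg2, Dusp1 and Maff (9.68% of members, 2.03% of all genes, 3.48% of tested genes). A serum response element, the SRF site, was found in Dusp5 and Egr2 (6.45% of members, 1.81% of all genes, 1.55% of tested genes). The AP-1 site, searched as TGACTCA or TGAGTCA, was found in Csrnp1 only (3.23% of the 31 members, 5.95% of all genes, 4.47% of tested genes). The EGR site GCGTGGGCG was found in Maff only (3.23% of members, 0.707% of all genes, 1.34% of tested genes). A site farther from the start, or in a member without a window, would be missed. These matches describe letters in a window and say nothing of whether a factor was bound.

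The 250 bases before the start are printed for 6 members that have a core there. Homer1, Nr4a1 and Egr2 were highest in wild type replicate 2. The values of Npas4 and Nr4a2 did not overlap between genotypes, and those of Fos did. Each window is read 5′ to 3′ on the gene's strand in GRCm38.p6. Capitals mark the TGACG core on either strand (CGTCA where it lies on the other strand) and, in Egr2, also the serum response element. The windows are Homer1 at chr13:93303507-93303756 (plus strand), Nr4a1 at chr15:101266596-101266845 (plus), Egr2 at chr10:67537619-67537868 (plus), Npas4 at chr19:4989972-4990221 (minus), Nr4a2 at chr2:57124004-57124253 (minus) and Fos at chr12:85473640-85473889 (plus).
Homer1: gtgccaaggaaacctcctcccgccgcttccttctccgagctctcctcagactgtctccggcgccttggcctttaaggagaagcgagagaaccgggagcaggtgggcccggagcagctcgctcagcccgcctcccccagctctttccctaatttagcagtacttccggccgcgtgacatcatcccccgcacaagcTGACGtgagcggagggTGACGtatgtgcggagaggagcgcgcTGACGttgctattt
Nr4a1: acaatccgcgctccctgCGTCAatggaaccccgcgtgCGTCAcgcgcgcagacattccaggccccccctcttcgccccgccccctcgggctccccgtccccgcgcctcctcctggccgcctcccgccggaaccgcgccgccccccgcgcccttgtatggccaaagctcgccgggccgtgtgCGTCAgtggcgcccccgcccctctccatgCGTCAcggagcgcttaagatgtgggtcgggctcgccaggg
Egr2: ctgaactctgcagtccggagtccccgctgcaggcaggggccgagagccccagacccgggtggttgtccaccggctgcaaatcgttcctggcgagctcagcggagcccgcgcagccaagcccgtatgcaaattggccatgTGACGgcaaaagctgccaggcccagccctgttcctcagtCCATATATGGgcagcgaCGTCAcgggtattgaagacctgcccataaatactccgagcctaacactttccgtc
Npas4: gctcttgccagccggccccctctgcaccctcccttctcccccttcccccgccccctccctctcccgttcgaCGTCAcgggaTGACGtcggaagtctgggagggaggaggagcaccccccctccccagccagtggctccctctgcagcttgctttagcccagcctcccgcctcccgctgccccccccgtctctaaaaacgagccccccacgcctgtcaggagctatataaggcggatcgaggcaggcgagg
Nr4a2: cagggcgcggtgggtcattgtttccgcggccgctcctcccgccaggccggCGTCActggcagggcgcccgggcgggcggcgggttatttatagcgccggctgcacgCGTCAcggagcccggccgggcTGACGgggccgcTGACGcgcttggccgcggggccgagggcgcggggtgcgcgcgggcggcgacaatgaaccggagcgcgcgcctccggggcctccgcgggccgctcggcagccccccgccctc
Fos: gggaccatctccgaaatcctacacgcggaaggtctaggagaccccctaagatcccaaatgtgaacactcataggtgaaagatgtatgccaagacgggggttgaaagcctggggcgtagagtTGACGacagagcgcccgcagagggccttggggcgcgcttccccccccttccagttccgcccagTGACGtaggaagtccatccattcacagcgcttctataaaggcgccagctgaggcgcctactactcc
In the printed windows Nr4a1 and Nr4a2 have 4 cores each, Homer1 has 3, and Egr2, Npas4 and Fos have 2 each. Homer1 and Egr2 also have windows at other starts, not printed, and some of these hold no core. The serum response element in the printed Egr2 window begins 72 bases before the start and lies between its 2 cores. Members with 4 cores thus include a gene highest in wild type replicate 2 and a gene higher in every cKO library. Members with a window but no core were Ier5, Jun, Fosl2, Jund, Gadd45b, Gadd45g, Dusp6 and Pim1. In Ptgs2 the only core lay after the start. So Ptgs2, Fosl2 and Jund, whose values also did not overlap between genotypes, had no core in the 250 bases before the start.

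Ctcf itself was measured at 64.3, 65.2 and 70.3 CPM (read counts relative to the TMM-scaled library size) in the wild type libraries, replicates 1 to 3 in order, and at 24.1, 34.5 and 35.8 CPM in the cKO libraries. Values are given in this order throughout. The groups did not overlap, and the log2 fold change of cKO against wild type was -1.08 (SE 0.15, edgeR quasi-likelihood test, adjusted p = 0.0264). Total counts per library ran from 14974750 to 23220455. All 14 hippocampal neuron markers, among them Prox1 and Neurod2, were detected in the 6 libraries, with summed levels of 525 to 965 CPM in wild type and 753 to 944 CPM in cKO, lowest in wild type replicate 2. Within that list 10 log2 fold changes were above 0 and 4 below, and 1 gene was called, Wfs1 (-1.16, edgeR adjusted p = 0.00775). Libraries stood apart in markers of neighbouring regions. The 8 striatal neuron markers, led by Ppp1r1b, summed to 622, 3016 and 1240 CPM in wild type and to 134, 365 and 215 CPM in cKO, and the 11 choroid plexus markers to 7760 to 15662 CPM in wild type and 986 to 8814 CPM in cKO. Wild type replicate 2 was highest in both lists and cKO replicate 1 lowest in both, and no gene of either list was at 0 in every library. Log2 fold changes were below 0 for 8 of 8 striatal, 11 of 11 choroid plexus and 10 of 10 oligodendrocyte markers, the last at 13924 to 18523 CPM in wild type and 10649 to 14109 CPM in cKO. Astrocyte markers summed to 4628 to 4832 CPM in wild type and 4850 to 5366 CPM in cKO, and microglia markers to 528 to 590 CPM and 490 to 578 CPM. Endothelial and mural markers were at 383 to 428 CPM and 365 to 422 CPM, and interneuron markers at 1008 to 1189 CPM and 924 to 1060 CPM. In bulk tissue, fewer cells of a type and less RNA per cell cannot be told apart.

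None of the 39 members passed the edgeR quasi-likelihood test at an adjusted p of 0.05, where 1.51% of all tested genes did. At an unadjusted p under 0.05 there were 7 members (17.9%), against 19.9% of all tested genes. They were Npas4, Nr4a2, Nr4a3, Ptgs2 and Fosl2, higher in cKO (5 members, 12.8%, against 11.1% of all genes in that direction), and Jund and Rgs2, lower in cKO (2 members, 5.13%, against 8.81%). limma-voom also called 0 members, where it called 0.945% of all genes higher and 0.382% lower, and had the same 7 at an unadjusted p under 0.05. DESeq2 called 3 members, Npas4, Nr4a2 and Ptgs2, all higher in cKO, where it called 3.42% of the genes it tested as higher and 2.39% as lower. The authors' deposited table has the same 3 below an adjusted p of 0.05, where 2.41% of its genes with a count above 0 were called higher and 1.65% lower. In edgeR the shares of members were thus near or below those of all genes. The 3 members called higher by DESeq2 and in the authors' table were 7.69% of the 39, above the 3.42% and 2.41% of all genes there. Both called 0 members lower. The log2 fold change was above 0 for 20 of 39 members (51.3%, against 49.2% of all genes), with a median of 0.01 (all genes -0.004). The groups did not overlap for 8 of 39 members (20.5%), against 27.0% of all tested genes. In 5 of them all cKO values were above (12.8%, against 14.6%), and in 3, Jund, Dusp1 and Rgs2, below (7.69%, against 12.4%).

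**Figure D1:**
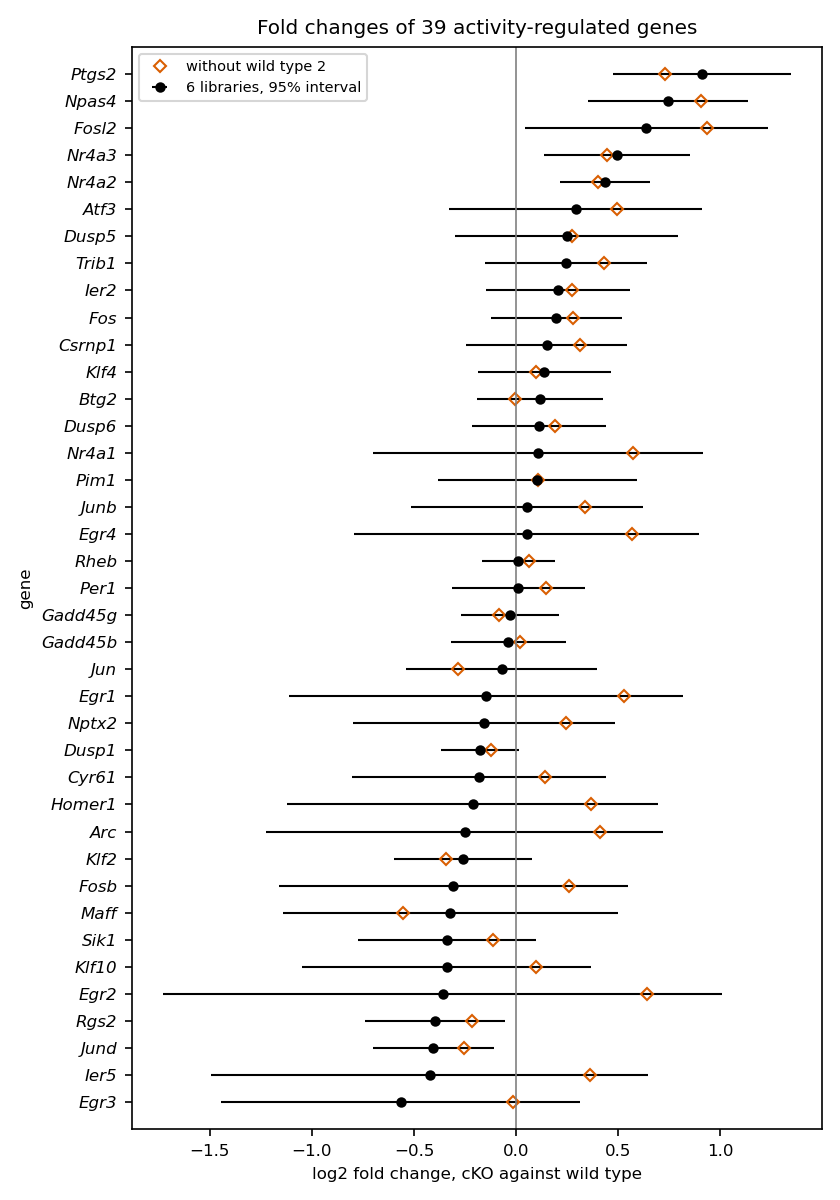
Log2 fold change of each of the 39 members, cKO against wild type. Black points are the fit to 6 libraries with 95% intervals (n = 3 per group) and open diamonds the fit without wild type replicate 2; Ptgs2 and Npas4 have the highest values (0.91 and 0.74), and the widest intervals belong to members such as Egr2, whose diamond lies on the other side of 0.

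The spread between libraries was the main feature of these genes. The median SD of log2 CPM over the members was 0.30 among the 3 wild type libraries and 0.22 among the 3 cKO libraries, against 0.15 and 0.13 over all tested genes. The SD was larger in wild type than in cKO for 30 of 39 members (76.9%, against 56.7% of all genes). edgeR's biological coefficient of variation, the replicate spread left after counting error, lay above the all-gene median for 33 of 39 members (84.6%), a line that by construction divides all genes equally. The members' median was 0.169, and that of all genes 0.124.

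**Figure D2:**
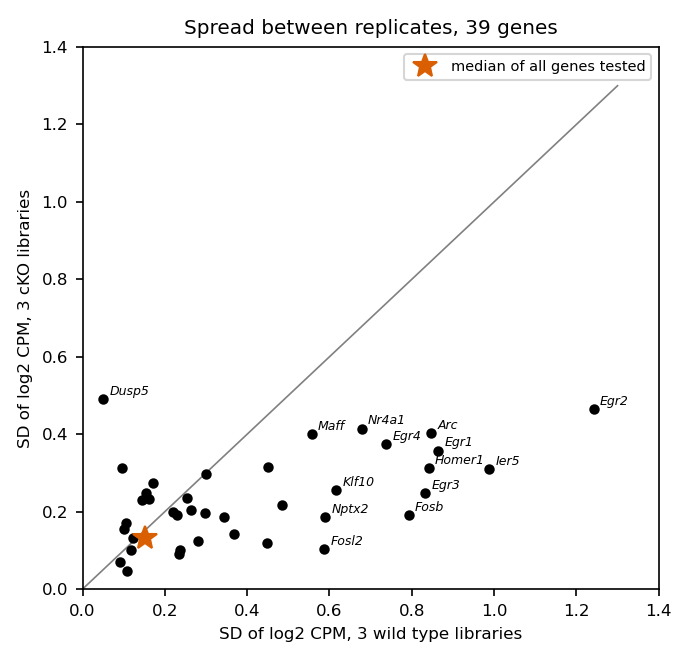
SD of log2 CPM among the 3 cKO libraries (y axis) against that among the 3 wild type libraries (x axis) for the 39 members, with the line of equality and, as a star, the medians of all tested genes (0.15 and 0.13). 30 of 39 members lie below the line, with Egr2, Ier5, Egr1, Arc, Homer1, Egr3 and Fosb far to the right.

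The high values lay mostly in 1 library. Wild type replicate 2 was the highest of the 6 libraries for 21 of 39 members (53.8%, against 26.4% of all tested genes), and wild type replicate 1 the lowest for 19 (48.7%, against 16.4%). Replicate 2 was at least 1.5 times the mean of the other wild type libraries for 15 members (38.5%, against 8.18% of all genes) and at least 2 times for 10 (25.6%, against 2.99%). Those 10 were Fosb, Egr1, Egr2, Egr3, Egr4, Arc, Nr4a1, Ier5, Homer1 and Klf10. Not all members followed it: Jun, Nr4a2, Btg2, Gadd45g, Klf4 and Ptgs2 had their lowest value in the same library (6 members, 15.4%, against 26.0% of all genes). The summed level of the 39 members was 1842, 3359 and 2056 CPM in wild type and 2522, 2367 and 1943 CPM in cKO.

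**Figure D3:**
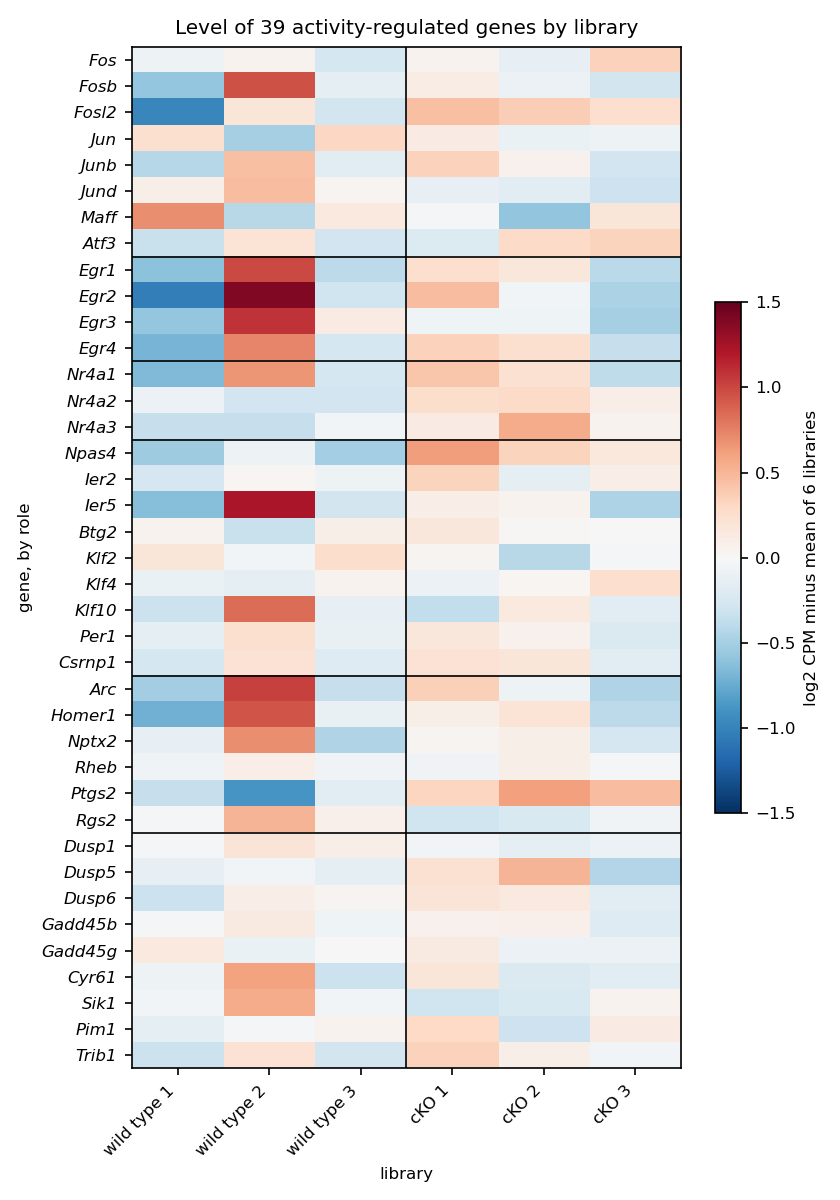
Log2 CPM of the 39 members (rows, by role) in each library (columns) minus the mean of the 6 libraries; colours run from blue (lower) to red (higher) and end at 1.5. Wild type replicate 2 is highest for 21 members, most deeply among the EGR factors, Ier5, Arc and Homer1, and lowest for 6, among them Ptgs2 and Jun.

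The EGR factors are zinc finger proteins induced together by activity. Egr1 (chr18:34861207-34864956, plus strand), needed for long-lasting synaptic potentiation, was at 175, 530 and 204 CPM in wild type and at 317, 302 and 202 CPM in cKO. Its groups overlapped, with 1 wild type library above every cKO library and 1 below, and the log2 fold change was -0.15 (SE 0.41, edgeR adjusted p = 0.877, 95% interval -1.11 to 0.82). Egr2 (chr10:67534469-67542188, plus strand) varied most of all members, at 3.97, 21.8 and 6.70 CPM in wild type and 11.4, 8.03 and 5.94 CPM in cKO, a range of 5.49 times. Egr3 (chr14:70077317-70082613, plus strand) was at 61.3, 194 and 99.2 CPM in wild type and 87.5, 87.2 and 64.9 CPM in cKO, with the lowest log2 fold change of the members (-0.57, SE 0.38, edgeR adjusted p = 0.436). Egr4 (chr6:85511121-85513589, minus strand) was at 32.8, 88.9 and 44.3 CPM in wild type and 67.7, 62.8 and 41.7 CPM in cKO. All 4 were highest in wild type replicate 2 and lowest in wild type replicate 1, with the cKO libraries between. Their median SD of log2 CPM was 0.85 in wild type and 0.37 in cKO. Among the cKO libraries, replicate 3 was the lowest for each of the 4.

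The AP-1 and related factors did not share 1 pattern. Fos (chr12:85473890-85477274, plus strand), the AP-1 subunit most used as a mark of recent activity, was at 39.1, 42.8 and 34.2 CPM in wild type and 42.8, 37.8 and 52.2 CPM in cKO, with overlapping groups (log2 fold change 0.20, SE 0.14, edgeR adjusted p = 0.460). In wild type replicate 2 it was 1.17 times the mean of the other wild type libraries, where Fosb (chr7:19302696-19310118, minus strand), its close relative, was 2.48 times that mean. Fosb was at 10.5, 30.6 and 14.2 CPM in wild type and 16.9, 14.8 and 12.97 CPM in cKO. So wild type replicate 2 was the highest wild type library for Fos, as for Egr1 and Arc, but by far less. Over all libraries Fos was highest in cKO replicate 3. Fosl2 (chr5:32136472-32157840, plus strand), the FRA2 subunit, was at 25.8, 58.1 and 42.3 CPM in wild type and 69.9, 65.9 and 60.6 CPM in cKO. All cKO values were above all wild type values; the wild type values were the more spread, and the log2 fold change of 0.64 (SE 0.25) had an edgeR adjusted p of 0.228.

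Among the JUN partners, Jund (chr8:70697739-70700616, plus strand), which is present in resting cells, was at 226, 295 and 219 CPM in wild type and 195, 191 and 172 CPM in cKO. All cKO values were below all wild type values (log2 fold change -0.41, SE 0.13, edgeR adjusted p = 0.150). Jun (chr4:95049036-95052222, minus strand) was at 113, 67.4 and 118 CPM in wild type and 104, 89.4 and 90.9 CPM in cKO, with wild type replicate 2 as its lowest library. Junb, Maff and Atf3, a repressor induced by stress, had overlapping groups and log2 fold changes of 0.05, -0.32 and 0.29. Maff and Atf3 were the least abundant members, at 0.836 and 0.958 CPM per kb of exon. Opposite-strand genes overlap Jun, Junb, Jund, Dusp1, Dusp5, Pim1 and Csrnp1 in GENCODE M21. Whether the library kit marked strand was not given in the sources used here. Prdx2 and Ergic1, the partners of Junb and Dusp1, have rows of their own in the table, and whether reads of such pairs were kept apart is unknown.

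The NR4A receptors are orphan nuclear receptors induced within minutes and take part in memory formation. Nr4a2 (chr2:57106830-57124003, minus strand) was at 31.8, 27.5 and 27.6 CPM in wild type and 40.3, 41.2 and 36.1 CPM in cKO. All cKO values were above all wild type values and both groups were tight (29.0 ± 2.41 and 39.2 ± 2.70 CPM, SD, n = 3). Its log2 fold change was 0.44 (SE 0.09, 95% interval 0.21 to 0.66), with adjusted p = 0.0736 in edgeR, 0.0154 in DESeq2 and 0.0196 in the authors' deposited table. Over 15 alternative fits that adjusted p ran from 0.0154 to 0.552. Nr4a3 (chr4:48045078-48086447, plus strand) was at 62.9, 62.9 and 77.2 CPM in wild type and 86.5, 117 and 82.6 CPM in cKO, also without overlap (log2 fold change 0.49, SE 0.15, edgeR adjusted p = 0.148). Nr4a1 (chr15:101253902-101274795, plus strand) had its highest and lowest values in the same libraries as the EGR factors. It was at 68.5, 171 and 90.2 CPM in wild type and 145, 127 and 83.6 CPM in cKO, with overlapping groups and a log2 fold change of 0.11 (SE 0.35, edgeR adjusted p = 0.895).

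Npas4 (chr19:4984353-5003439, minus strand) encodes a transcription factor that is made almost only in response to neuronal depolarisation and that shapes inhibitory synapses. It was at 16.4, 22.4 and 16.6 CPM in wild type and 36.6, 29.9 and 26.5 CPM in cKO. All cKO values were above all wild type values, and cKO replicate 1 was highest. Its log2 fold change was 0.74 (SE 0.17, 95% interval 0.35 to 1.14), with adjusted p = 0.0798 in edgeR, 0.00494 in DESeq2 and 0.00630 in the authors' deposited table. Without wild type replicate 2, whose Npas4 level was the closest to cKO, the log2 fold change was 0.90 with an edgeR adjusted p of 0.0413, the only member called in that fit (1 of 39, where 0.643% of all genes were called higher). Over 15 alternative fits the log2 fold change ran from 0.61 to 0.92 and the adjusted p from 0.00494 to 0.457.

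Of the other transcriptional regulators, Ier5 (chr1:155096367-155099636, minus strand), an immediate early gene, had the widest gap after Egr2, at 44.3, 162 and 57.2 CPM in wild type and 74.4, 71.7 and 50.3 CPM in cKO. Wild type replicate 2 was 3.19 times the mean of the other wild type libraries. Klf10 followed it at 17.9, 39.9 and 20.5 CPM in wild type and 17.3, 24.7 and 19.8 CPM in cKO. Klf2, Klf4, Btg2, Ier2, Csrnp1 and Per1, the last a clock gene with CREB-responsive transcription, had overlapping groups and log2 fold changes between -0.26 (Klf2) and 0.21 (Ier2).

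Of the 6 synaptic and neuronal effectors, 5 were highest in wild type replicate 2, and Ptgs2 was lowest there. Arc (chr15:74669081-74672570, minus strand), a capsid-like protein that removes AMPA receptors from synapses, was at 172, 505 and 195 CPM in wild type and 318, 234 and 182 CPM in cKO. Its log2 fold change was -0.25 (SE 0.42, edgeR adjusted p = 0.773, 95% interval -1.22 to 0.72). Without wild type replicate 2 it was 0.41, the opposite sign. Homer1 (chr13:93303757-93405129, plus strand), whose short activity-induced form loosens the postsynaptic scaffold and was counted here with the long forms, was at 43.6, 138 and 66.8 CPM in wild type and 76.6, 83.1 and 55.1 CPM in cKO. Nptx2, a secreted pentraxin that gathers AMPA receptors, was also highest in wild type replicate 2, at 98.2 CPM against 44.3 to 64.5 CPM in the other 5 libraries.

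The groups did not overlap for Ptgs2 and Rgs2. Ptgs2 (chr1:150100031-150108234, plus strand), the inducible cyclooxygenase COX-2, was at 10.6, 7.27 and 11.9 CPM in wild type and 16.9, 20.6 and 18.6 CPM in cKO, the widest difference of the 39. All cKO values were above all wild type values, and wild type replicate 2 was the lowest (log2 fold change 0.91, SE 0.19, 95% interval 0.48 to 1.34). Adjusted p was 0.0649 in edgeR, 0.00107 in DESeq2 and 0.00136 in the authors' deposited table, and it ran from 0.00107 to 0.508 over 15 alternative fits. Rgs2 (chr1:143999338-144004149, minus strand), which speeds the switch-off of G proteins, was at 52.6, 76.0 and 56.3 CPM in wild type and 43.4, 45.6 and 51.3 CPM in cKO, highest in wild type replicate 2 (log2 fold change -0.40, SE 0.15, edgeR adjusted p = 0.202). Rheb, a small GTPase upstream of mTOR, was nearly flat at 105 to 118 CPM over the 6 libraries.

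**Figure D4:**
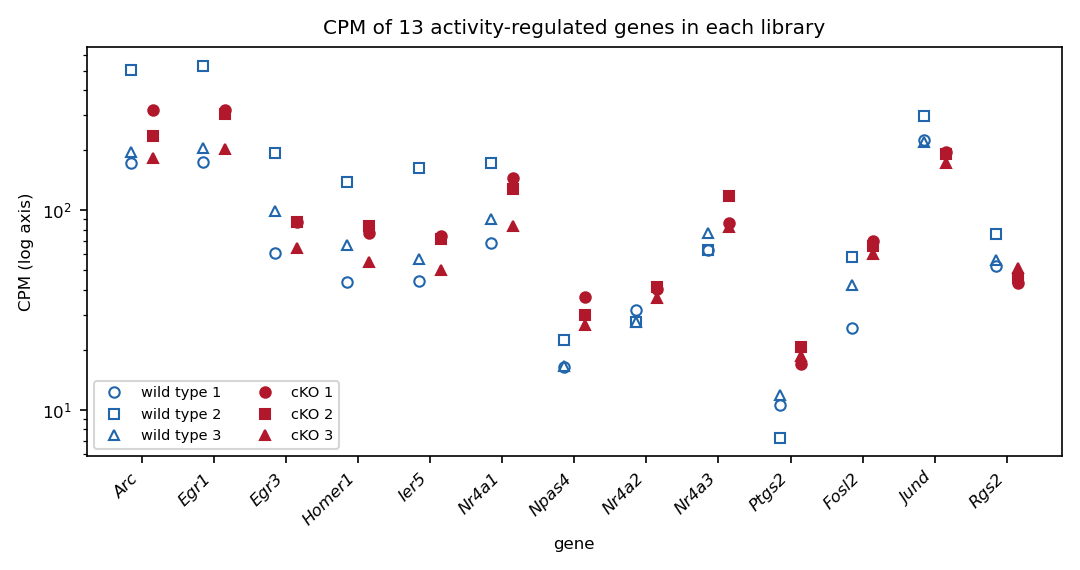
CPM (log axis) of 13 members in each library; open blue symbols are the 3 wild type libraries, filled red symbols the 3 cKO libraries, and a shape stands for a replicate number. Wild type replicate 2 (open squares) is far above the rest for Arc, Egr1, Egr3, Homer1 and Ier5, and the groups do not overlap for Npas4, Nr4a2, Nr4a3, Ptgs2, Fosl2, Jund and Rgs2.

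Of the 6 role groups, the signalling feedback and stress effectors had the lowest median SD of log2 CPM among the wild type libraries (0.12). Dusp1, a phosphatase that switches off MAP kinases, was at 41.4, 48.1 and 44.5 CPM in wild type and 40.7, 38.1 and 39.6 CPM in cKO. All cKO values were below all wild type values, by little (log2 fold change -0.18, SE 0.08, edgeR adjusted p = 0.280). Dusp5, Dusp6, Gadd45b, Gadd45g, Pim1 and Trib1 had overlapping groups and log2 fold changes from -0.04 to 0.25. Sik1 and Cyr61, now called Ccn1, were highest in wild type replicate 2 at 34.4 and 9.88 CPM. Per kb of exon the members ranged from 130 ± 25.9 CPM (Jund, SD, n = 6) and 87.6 ± 41.8 CPM (Arc) down to 0.836 CPM (Maff). The libraries' values of Jund and Arc overlapped.

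Leaving out wild type replicate 2 changed the direction of 11 members, among them Arc, Egr1, Egr2, Ier5, Homer1 and Fosb. In that fit the log2 fold change was above 0 for 29 of 39 members (74.4%, against 49.0% of all genes), with a median of 0.26. At an unadjusted p under 0.05 there were 9 members higher in cKO (23.1%, against 9.90% of all genes) and 3 lower (7.69%, against 6.92%). The 9 were Fosl2, Egr1, Egr4, Npas4, Nr4a1, Nr4a2, Nr4a3, Trib1 and Ptgs2. The library was named as one to watch in the choice of these genes, so the shift is a description. The share also moved when another library was left out. Without cKO replicate 1, 15 members were above 0 (38.5%, against 48.8% of all genes), with a median of -0.085. Without wild type replicate 3 there were 16 (41.0%, against 49.1%), and without wild type replicate 1 there were 17 (43.6%, against 51.0%). Without cKO replicate 2 there were 18 (46.2%, against 50.5%), and without cKO replicate 3 there were 23 (59.0%, against 48.0%). Against wild type replicates 1 and 3, a comparison added after the values were seen, all cKO values were above for 8 members (20.5%, against 19.2% of all genes) and below for 5 (12.8%, against 17.2%). Without wild type replicate 2 and cKO replicate 1, the libraries at the ends of the striatal marker range, 27 members were above 0 (69.2%, against 49.3% of all genes) with a median of 0.17. With a covariate for the striatal marker level, 31 members were above 0 (79.5%, against 52.1% of all genes), but 0 genes in the whole table were called. That level did not overlap between genotypes, with summed values of 622 to 3016 CPM in wild type and 134 to 365 CPM in cKO. The covariate thus cannot be fully separated from genotype, and these signs are not adjusted directions. Wild type replicate 2 was highest in striatal and choroid plexus markers and for 21 of the 39 members. cKO replicate 1, lowest in both marker lists, was the highest of the 6 libraries for 7 members (17.9%, against 18.7% of all genes). It was the lowest for 3 members (7.69%, against 20.3%), Klf10, Sik1 and Rgs2. The part of the markers in the members' levels was not tested.

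**Figure D5:**
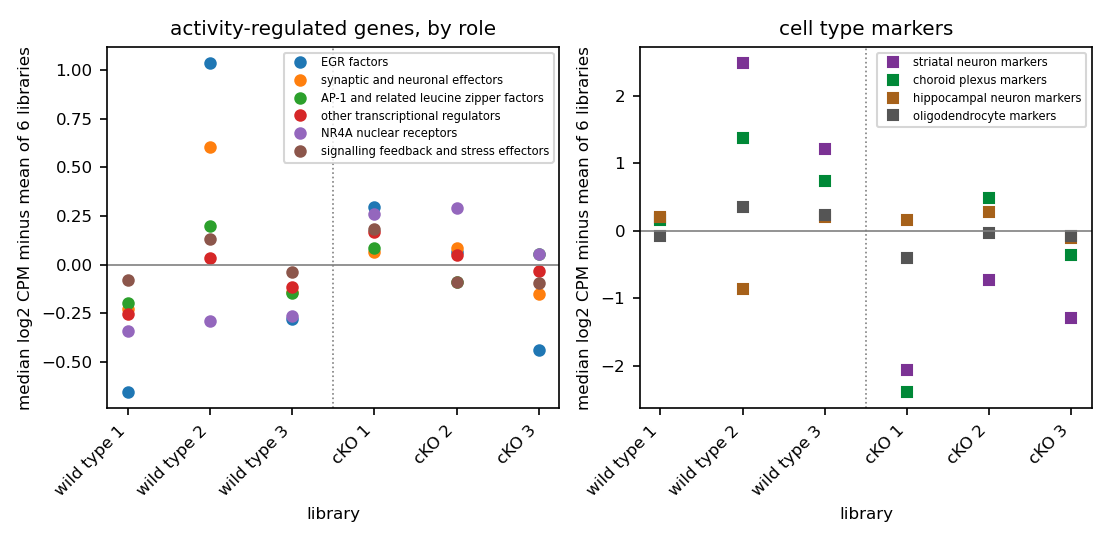
Median log2 CPM minus the mean of the 6 libraries, per library, for the 6 role groups of members (left) and 4 marker lists (right; the y scale differs). The EGR factors stand at 1.03 and the synaptic effectors at 0.60 in wild type replicate 2, where striatal markers stand at 2.49 and hippocampal neuron markers at -0.86.

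Genes around the members were read from 4 lists. Of 35 upstream kinases, calcium and transcription factors, Rps6ka3 was the 1 called. It encodes RSK2, a kinase that phosphorylates CREB, and was at 35.4, 56.7 and 50.3 CPM in wild type and 99.2, 111 and 84.8 CPM in cKO (log2 fold change 1.05, SE 0.18, edgeR adjusted p = 0.0458). At an unadjusted p under 0.05, 6 of the 35 were higher in cKO (17.1%, against 11.1% of all genes) and 3 lower (8.57%, against 8.81%). The next smallest p-values were those of Braf, a kinase above MEK (log2 fold change 0.28), and Mkl1, a coactivator of SRF (0.44), with edgeR adjusted p of 0.121 and 0.138. DESeq2 called Rps6ka3 and Mkl1. In edgeR, Rps6ka3 lost its call when any single library other than wild type replicate 2 was left out, and with the striatal covariate.

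Of 30 later activity-regulated genes, 0 were called. At an unadjusted p under 0.05, 3 were higher (10%, against 11.1% of all genes) and 0 lower (8.81% of all genes). The 3 were Ifrd1 (log2 fold change 0.65, edgeR adjusted p = 0.0570), Bdnf, the neurotrophin (0.59, 0.119), and Arl5b (0.53, 0.125); the fourth smallest p was that of Bhlhe40 (-0.20, 0.290). DESeq2 called Ifrd1 and Bdnf. Bdnf was at 29.3, 19.4 and 29.3 CPM in wild type and 38.9, 41.7 and 37.3 CPM in cKO, with wild type replicate 2 again the lowest, as for Ptgs2. Of 41 tested paralogues of the members (of 43 listed), 0 were called. At an unadjusted p under 0.05, 3 were higher (7.32%, against 11.1% of all genes) and 2 lower (4.88%, against 8.81%). Homer2 (0.78) and Csrnp3 (0.23) were higher in every cKO library, and Nptxr (-0.55) and Pim3 (-0.23) lower, with edgeR adjusted p of 0.0627, 0.137, 0.0736 and 0.207; DESeq2 called Homer2 and Nptxr. Of 11 heat shock genes, 0 were called. At an unadjusted p under 0.05, 5 were lower (45.5%, against 8.81% of all genes) and 0 higher. The 4 with the smallest p were Hspa1a (-0.85), Dnajb1 (-0.50), Bag3 (-0.49) and Hspa5 (-0.23), with edgeR adjusted p from 0.0938 to 0.209. DESeq2 called Hspa1a, Dnajb1 and Bag3.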

How the data were processed

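RNA-seq of 6 mouse hippocampus libraries was used. The labels' protocols name a Qiagen extraction kit and the Illumina TruSeq library kit. The authors deposited whole-number read counts per gene symbol, per the file headers. Build mm10 and the tools HTSeq 0.6.1p1, TopHat2 2.0.10, cutadapt and DESeq2 1.6.3 are listed in the submitters' processing notes, without settings. An annotation version was not given in the sources used here. Also deposited by the authors in that table are normalised counts (a signal, not used for any test) and their own p-value, adjusted p-value and log2 fold change. The table had 24421 rows, 4993 of them at 0 in all libraries, and 0 columns were left unmatched. For every pair of libraries a chi-square statistic per degree of freedom was at least 11.2, so none was a copy of another.

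Counts were tested with edgeR 4.0.16 (R 4.3.3) by the quasi-likelihood test after its expression filter (minimum count 10) and TMM scaling, with Benjamini-Hochberg adjustment over all tested genes and a threshold of 0.05. The procedure was tested on simulated data. DESeq2 1.42.0 and limma-voom (limma 3.58.1), other scalings and filters, a replicate block and each library left out were alternatives. Log2 CPM used a prior count of 2. Gene positions came from RefSeq GRCm38.p6 (24300 rows matched by symbol, all 39 members among them), exon lengths and overlaps from GENCODE M21. The members, role groups and lists were chosen with earlier results of these data known. All 39 members are named or counted, and 4 genes with the smallest p per related list are named, except 1 that is not reported here. p-values measure the spread between samples called biological replicates.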

Additional observations from a re-analysis of the deposited data

How the results depend on the processing

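With 3 libraries per group, 1 library decides many values. Leaving out each library in turn gave 12 to 147 called genes in all (225 with all), 0 to 1 members (Npas4, without wild type replicate 2) and 0 to 1 related genes. Called genes in all, members and related genes numbered 869, 3 and 9 with DESeq2, 691, 3 and 6 at an adjusted p below 0.1, 111, 1 and 2 with wild type replicate 2 and cKO replicate 1 both left out, and 0, 0 and 0 with the striatal marker covariate (1613 genes at an unadjusted p under 0.05). Without the low-count filter 3 related genes were called. Members kept 0 calls under limma-voom, both other scalings, both other filters and the replicate block. Same-numbered samples correlated in their deviations at 0.22, 0.43 and 0.08, and not every sample correlated best with its own number. The deviations were taken within groups of 3, so they cannot decide whether same-numbered samples shared a litter or day. The labels do not say so. The replicate block called 185 genes, 107 higher and 78 lower. Reversed log2 fold changes were Egr1 0.011 with limma-voom, Egr1 0.0062 with the replicate block, Per1 -0.0075 and Rheb -0.0066 with upper-quartile scaling, and Fosb 0.999, Egr1 1.28, Egr2 1.63, Egr3 0.90, Arc 0.94, Ier5 1.31, Btg2 -0.30, Homer1 1.32, Nptx2 0.61, Gadd45b 0.064, Cyr61 0.26, Klf10 0.99, Sik1 0.28, Pim1 -0.15 and Rgs2 0.14 with the striatal covariate. The striatal covariate cannot be fully separated from genotype, so its reversals are not adjusted directions. The cause was not tested. Ranges over the fits with 1 library, or that pair, left out, for members that reversed, were Arc -0.52 to 0.41, Btg2 -0.061 to 0.19, Cyr61 -0.37 to 0.14, Dusp6 -0.0063 to 0.21, Egr1 -0.42 to 0.53, Egr2 -0.75 to 0.64, Egr4 -0.21 to 0.57, Fosb -0.59 to 0.26, Gadd45b -0.084 to 0.047, Gadd45g -0.16 to 0.037, Homer1 -0.52 to 0.37, Ier5 -0.74 to 0.36, Jun -0.36 to 0.075, Junb -0.12 to 0.34, Klf10 -0.55 to 0.20, Maff -0.58 to 0.0031, Nptx2 -0.38 to 0.24, Nr4a1 -0.14 to 0.57, Per1 -0.072 to 0.15, Pim1 -0.028 to 0.26, Rheb -0.028 to 0.092. Library levels and motif shares moved by less than the replicate spread or counting interval under other scalings, prior counts and windows.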
